A study of Zea mays with 18 samples.

Results

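The 10 genes of starch synthesis in maize were followed through 2 stages of the developing ear. They are sh2, bt2, bt1, wx1, su2, du1, sbe1, ae1, su1 and zpu1, and are 10 of the 76612 identifiers with a row in the expression table. The choice was made by name and identifier and not by a ranking of values, though earlier results of these data were known. RNA was sequenced from ear at growth stage R1, the silking stage, and from ear inflorescence at the earlier vegetative stage V16. In each tissue the plants were ATHB17 event 1, ATHB17 event 2, or plants without ATHB17, labelled wild type and called control here. All were of the hybrid NN6306 grown in Illinois in 2012 without stress treatment. This gave 6 groups of 3 biological replicates, 18 samples in all. Both events carry the full-length coding region of the Arabidopsis homeodomain-leucine zipper gene ATHB17 behind a rice actin promoter, which is active through most of the plant, and their protein is a truncated form, ATHB17Δ113, that lacks the N-terminal stretch. The ATHB17 vector also carried a glyphosate tolerance gene for selection. The paper states that where insect protection or glyphosate tolerance traits were present, event and control plants had the same ones. Each event is 1 transformed line in 1 hybrid, and the sources do not say how many ears made up a replicate.

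Starch is made inside plastids from ADP-glucose. In cereals ADP-glucose pyrophosphorylase makes this sugar nucleotide, in the endosperm mostly outside the plastid, from where a transporter carries it in. Starch synthases then lengthen the glucan chains, branching enzymes introduce branch points, and debranching enzymes trim misplaced branches so that the polymer can crystallize. Several of the genes take their names from kernel mutants, among them shrunken2 (sh2), brittle2 (bt2), brittle1 (bt1), waxy1 (wx1), dull1 (du1), sugary1 (su1) and amylose extender1 (ae1), and the kernel's endosperm is where most of them are best known. Neither tissue examined here is a filled kernel.

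The values are normalized counts, the reads assigned to an identifier scaled so that samples of unequal depth can be compared. Each identifier has 1 row, called a gene or a transcript here, and the sources used here do not say how several transcripts of a gene were reduced to it. The values are not corrected for transcript length, so levels are compared between samples and not between genes. The reads assigned per sample summed to 27293941 to 52655576 over all identifiers. A read counted on every transcript it hit, so these sums are larger than the numbers of reads sequenced that the paper gives. Along the first principal component of the 39715 transcripts with a mean normalized count of 10 or more, event 2 ear replicate 2 lay at -58.38. No other ear sample was above -112.6. Event 1 ear inflorescence replicate 1 had the highest value, 202.4, and replicate 2 of that group the lowest of its tissue, 72.1. Chi-square per degree of freedom between the reads of replicate 1 and of replicates 2 and 3 of that group was 178.3 and 105.6. For every other pair of replicates of a group it was 8.43 to 30.14. The inflorescence regulator ra1 had reads in every ear inflorescence sample (0.80 to 17.3 normalized counts), though its lowest control and event 2 samples rested on 1 read each. ra1 was at 0 in every ear sample, while kn1, zfl1 and bd1 were detected in all 18 samples. Of the 6 endosperm markers examined 3 had a row. Their summed normalized count was 115 to 331 in ear and 9.01 to 29.0 in ear inflorescence. In ear nearly all of it came from gz27, the 27 kDa gamma zein. gz16 and bz15 reached at most 5.86 and 11.3. The 4 photosynthetic genes summed to 2991 to 6218 in ear and to 690 to 1370 in ear inflorescence, with event 1 ear highest at 5516 to 6218. In whole tissue, fewer cells of a type and less RNA per cell cannot be told apart, and the part of these tissue markers in the results below was not tested.

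Of the 10 genes 9 were expressed in both tissues, and bt1 was not detectable at this depth. The 9 expressed genes differed widely in how steady they were. The highest of the 18 samples stood above the lowest by a factor of 1.29 for su1, 1.46 for bt2, 1.70 for su2, 1.93 for sbe1 and 1.94 for ae1, but of 3.76 for du1, 3.99 for zpu1, 10.8 for sh2 and 31.7 for wx1. The 2 largest factors belong to the expressed genes with the fewest reads, sh2 (1023 over all libraries) and wx1 (1305), where counting noise widens such a ratio. The factor of wx1 also rests on 1 sample, at 430.1. The plot of normalized counts by group shows the difference between these steady and variable genes.

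**Figure D1:**
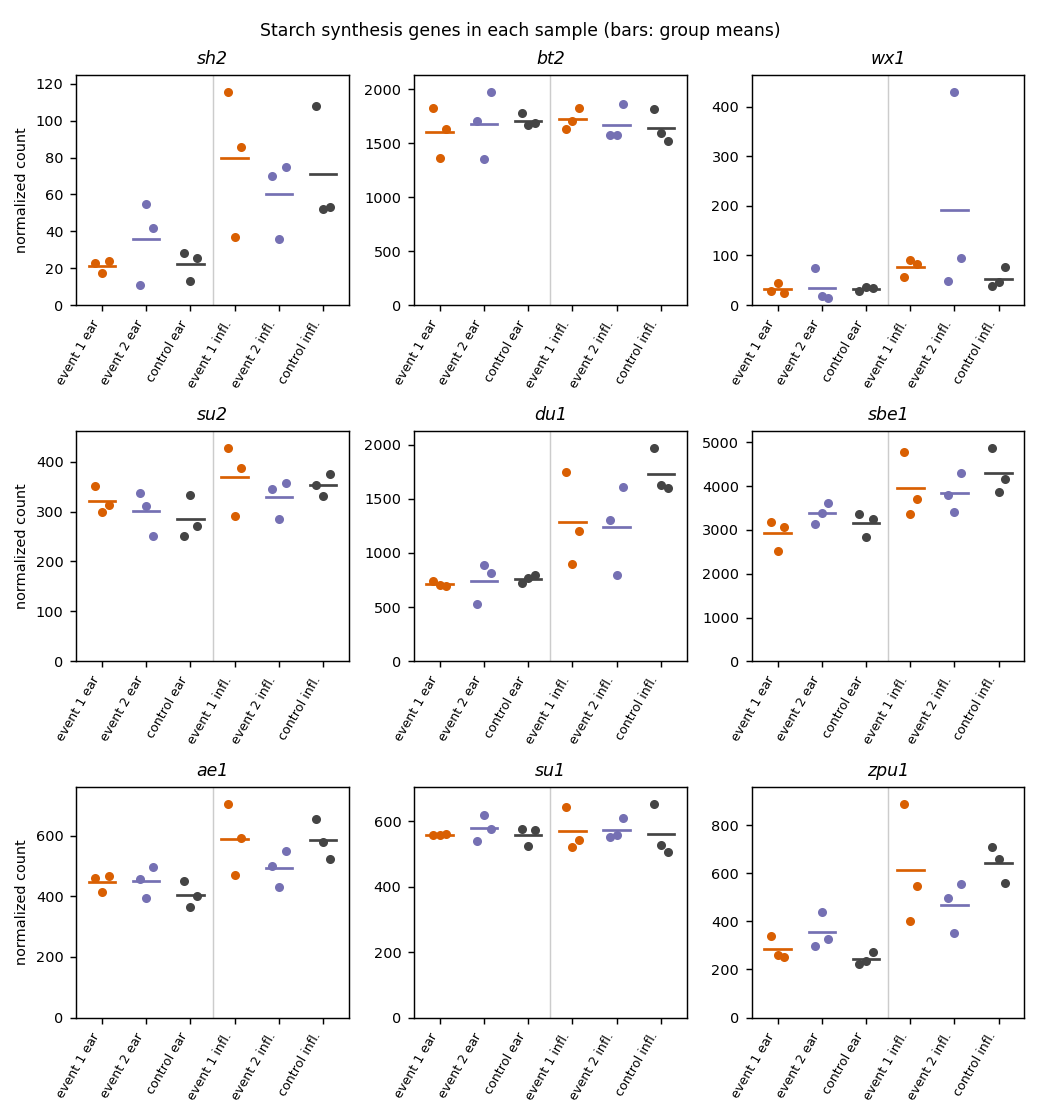
Normalized count (linear axis from 0) of 9 starch synthesis genes in each of 18 samples, with points for the 3 replicates and a bar for the group mean. Ear groups stand left of the gray line and ear inflorescence (infl.) groups right of it. bt2 and su1 lay at one level throughout, du1 and zpu1 were lower in ear than in ear inflorescence, and 1 event 2 ear inflorescence sample of wx1 stood alone at 430.1.

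The question of the tissue comparison is how the genes differ between the young inflorescence and the ear at silking, and it was asked within each genotype with limma, calling a transcript at a raw p at or below 0.0001. At this threshold none of the 10 genes was called in event 1 or event 2 and 1 was called in control, zpu1, which was lower in ear. Over all transcripts, 14.8% were called in event 1 (6.32% lower in ear), 7.87% in event 2 (2.70% lower in ear) and 13.8% in control (6.65% lower in ear). Among the 39715 with a mean normalized count of 10 or more, 6056 were called higher and 4564 lower in ear in event 1. In event 2 these were 3789 and 2004, and in control 5283 and 4888. The 9 expressed genes were thus not called more often than other expressed transcripts, and whether they were called less often was not tested. At a raw p under 0.05, 5 of the 9 expressed genes passed in event 1, 2 in event 2 and 5 in control, beside 45.7%, 34.5% and 44.9% of all transcripts and 66.8%, 54.1% and 67.0% of the 39715 whose mean normalized count was 10 or more. edgeR called 2, 1 and 3 of the genes in event 1, event 2 and control, beside 21.1%, 13.2% and 20.8% of all transcripts. DESeq2 called 1, 0 and 2, beside 18.9%, 11.2% and 18.7%. The fitted change was below 0 for 9 of the 9 expressed genes in event 1, 8 in event 2 and 8 in control. Of those 39715 transcripts it was below 0 for 19409, 20441 and 19530. The medians of the genes were -0.42, -0.18 and -0.53 on the log2 scale, beside 0.03, -0.03 and 0.03 over those transcripts.

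The mean of the difference over the 3 genotypes, a comparison added after the data had been seen, rests on 9 samples against 9. It called 2 of the 10 genes, zpu1 and du1, both lower in ear, beside 29.0% of all transcripts (14.7% lower in ear). Of the 39715 with a mean of 10 or more, 9883 were called higher and 9995 lower in ear. The share called was thus smaller among the 9 expressed genes than among those transcripts, a difference that was not tested. The fitted change was below 0 for all 9 expressed genes, and for 19680 of those 39715 transcripts. The medians were -0.35 and 0.01. For bt2 and su1 the change was near 0 and took either sign as single libraries were left out (-0.06 to 0.03 and -0.03 to 0.03).

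**Figure D2:**
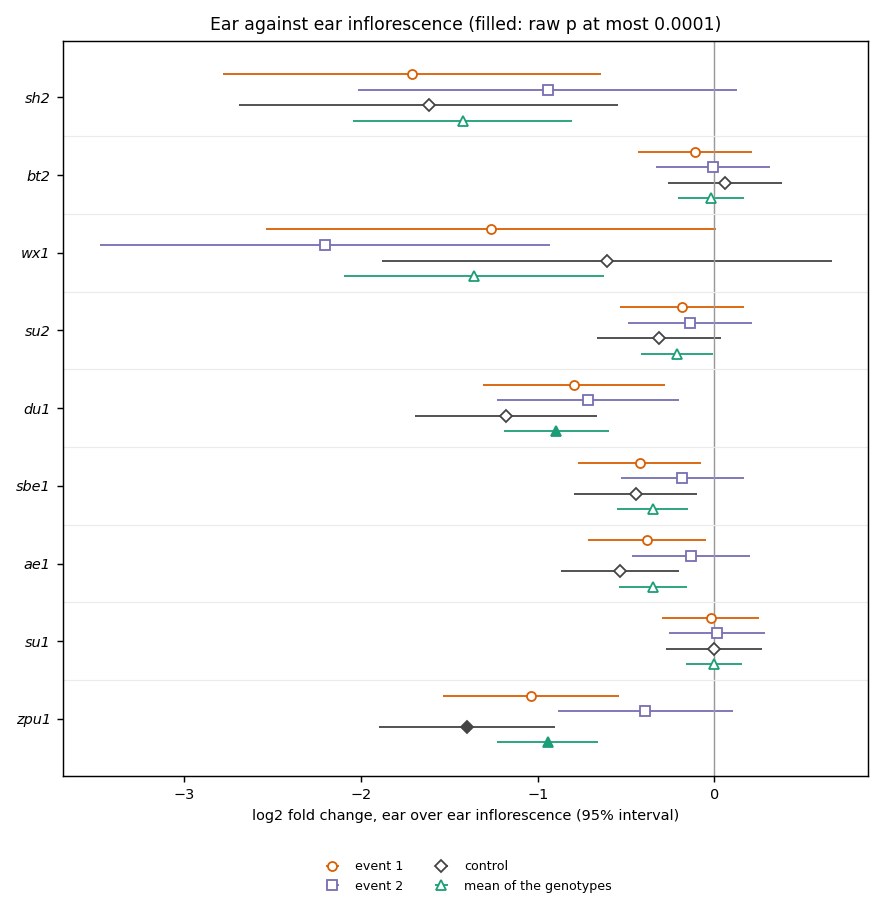
Log2 fold change of ear over ear inflorescence for 9 starch synthesis genes in event 1, event 2, control and the mean of the genotypes, with 95% intervals from limma and filled symbols for a raw p at or below 0.0001. zpu1 in control and zpu1 and du1 in the mean of the genotypes are filled, while bt2 and su1 lie at 0.

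sh2 and bt2 encode the large and the small subunit of the ADP-glucose pyrophosphorylase that serves the endosperm, and here the 2 genes behaved differently. In ear, sh2 (GRMZM2G429899) had 22.6, 17.6 and 23.9 normalized counts in event 1, 10.7, 54.8 and 41.6 in event 2 and 28.1, 13.2 and 25.3 in control. In ear inflorescence it had 115.7, 37.0 and 85.8 in event 1, 69.8, 35.8 and 74.9 in event 2 and 108.0, 52.3 and 53.3 in control. Every ear sample lay below every ear inflorescence sample in event 1 and in control, whereas the tissues overlapped in event 2. The highest event 2 ear sample was replicate 2, the ear library that stood apart. The share of all transcripts without such overlap was not computed, here or for the genes below. Whether the lack of overlap is particular to these genes was not tested. Over all transcripts, too, fewer passed a limma raw p under 0.05 in event 2 (34.5%) than in event 1 (45.7%) or control (44.9%). The log2 fold change of ear over ear inflorescence was -1.71 ± 0.51 for event 1 (SE, limma adjusted p = 0.0120), -0.94 ± 0.51 for event 2 (adjusted p = 0.206) and -1.62 ± 0.51 for control (adjusted p = 0.0174). The event 2 value was -0.26 without event 2 ear replicate 1 and -1.38 without event 2 ear replicate 2. The mean over genotypes was -1.43 ± 0.30, a level in ear 0.372 times that in ear inflorescence, with a limma adjusted p of 0.000406, and its raw p just missed the threshold. A pseudocount of 0.1 in place of 1 brought it past the threshold, at -1.46 (adjusted p = 0.000334). Few reads stood behind this gene, between 9 and 52 per library in ear.

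bt2 (GRMZM2G068506), the partner subunit, was level. It ranged from 1350 to 1976 normalized counts in ear and from 1522 to 1863 in ear inflorescence. Its group means lay between 1604 ± 232 in event 1 ear and 1720 ± 97.3 in event 1 ear inflorescence (SD, n = 3 each), and no neighbors in the order of the 6 means were apart from each other in range. The mean log2 difference between tissues was -0.02 with a 95% interval of -0.20 to 0.17.

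bt1 (GRMZM2G144081), the transporter that brings ADP-glucose into the amyloplast, had 0 reads in 17 of 18 libraries. The exception was event 2 ear replicate 3 with 2 reads, a normalized count of 1.60. A count of 0 allows up to 3 reads in a library, so no fold is given for bt1 in any comparison.

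The starch synthases include one bound to the granule and several soluble ones. wx1 (GRMZM2G024993), the granule-bound synthase that makes amylose, had 28.5, 44.1 and 23.9 normalized counts in event 1 ear, 74.9, 17.9 and 13.6 in event 2 ear and 28.1, 37.0 and 34.8 in control ear. In ear inflorescence it had 57.5, 91.9 and 83.4 in event 1, 48.7, 430.1 and 94.4 in event 2 and 37.9, 45.8 and 76.3 in control. The tissues did not overlap in event 1 and control, though in control the gap was under 1 normalized count, and they overlapped in event 2. The log2 fold change of ear over ear inflorescence was -1.26 ± 0.61 for event 1 (SE, limma adjusted p = 0.112), -2.20 ± 0.61 for event 2 (adjusted p = 0.0118) and -0.61 ± 0.61 for control (adjusted p = 0.468). Without event 2 ear inflorescence replicate 2, the sample at 430.1, the event 2 difference was -1.32 (limma adjusted p = 0.116). The mean over genotypes was -1.36 ± 0.35 (adjusted p = 0.00284) and -1.06 without that sample (adjusted p = 0.00838), and limma did not call it in either fit.

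The sample at 430.1 stood out in other transcripts too. In it 19 of the 39715 transcripts exceeded every other sample at least 4 times, and the other 17 samples had between 0 and 4 such transcripts each. A list of 9 genes typical of grass pollen (the beta-expansins EXPB1, EXPB9, EXPB10 and EXPB11, the pectin-degrading enzyme genes pgl1 and PG9, and the profilins prf1, prf2 and prf3), chosen after these values had been seen, summed to 1595 normalized counts in that sample, to 6.23 to 28.5 in the other 8 ear inflorescence samples and to 103.5 to 382.7 in ear. EXPB1, which loosens the cell walls of the stigma and style, was at 331.8 in that sample and at 0 in the other ear inflorescence samples. wx1 itself is known to act in pollen as well as in endosperm. Because the list was chosen with the values of this sample known, its high sum there is a description only. The part of the pollen list in the wx1 result was not tested.

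**Figure D3:**
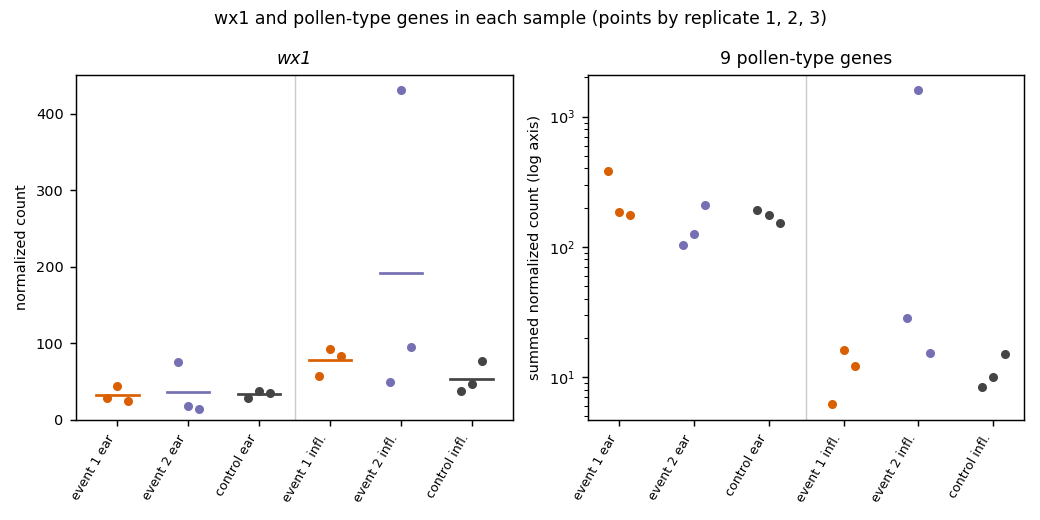
Left, normalized count of wx1 in each sample with bars for group means. Right, summed normalized count of 9 pollen-type genes, chosen after the values had been seen, on a log axis. Points are in the order of replicates 1, 2 and 3 in each group. Event 2 ear inflorescence replicate 2 is the highest sample in both panels, at 430.1 and 1595.

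du1 (GRMZM2G141399), which encodes the soluble starch synthase III, had 744.1, 705.0 and 691.5 normalized counts in event 1 ear, 524.6, 890.1 and 812.4 in event 2 ear and 723.9, 765.6 and 796.0 in control ear. In ear inflorescence it had 1751, 897.5 and 1204 in event 1, 1303, 801.3 and 1611 in event 2 and 1971, 1624 and 1602 in control. Ear was the lower tissue throughout in event 1 and control, and in event 2 the highest ear sample, replicate 2, exceeded the lowest ear inflorescence sample, also replicate 2. The log2 fold change was -0.79 ± 0.25 for event 1 (SE, limma adjusted p = 0.0150), -0.72 ± 0.25 for event 2 (adjusted p = 0.0400) and -1.18 ± 0.25 for control (adjusted p = 0.000884), where the raw p just missed the threshold. The mean over genotypes fell by 0.90 on the log2 scale (SE 0.14, limma adjusted p = 2.38e-05), to 0.537 times the ear inflorescence level. The call was lost without control ear inflorescence replicate 1, at -0.86 (limma adjusted p = 0.000435), and was kept without the 2 libraries that stood apart, at -0.86 (adjusted p = 0.00024). The group means put all 3 ear inflorescence groups above all 3 ear groups, and the step between event 2 ear inflorescence (1238 ± 409) and control ear (762 ± 36.2, SD, n = 3 each) was the only neighboring pair of du1 groups without overlap.

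su2 (GRMZM2G348551), the soluble starch synthase IIa, varied much less. It ranged from 251.8 to 351.8 normalized counts in ear and from 284.4 to 427.6 in ear inflorescence, and the tissues overlapped. The mean log2 difference was -0.21 with a 95% interval of -0.41 to -0.01 (limma adjusted p = 0.0746).

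The 2 branching enzyme genes differed between tissues by similar small amounts. sbe1 (GRMZM2G088753), branching enzyme I, had 2523 to 3606 normalized counts in ear and 3357 to 4873 in ear inflorescence. ae1 (GRMZM2G032628), branching enzyme IIb, had 363.0 to 497.4 in ear and 429.0 to 704.1 in ear inflorescence. The tissues did not overlap in event 1 or in control for either gene, but did in event 2. The mean log2 fold change over genotypes was -0.35 ± 0.10 for sbe1 (SE, limma adjusted p = 0.00426) and -0.35 ± 0.09 for ae1 (adjusted p = 0.00335), each 0.785 times the ear inflorescence level, and neither was called at the raw threshold. For sbe1 quantile normalization changed the mean to -0.74 and brought it past the threshold (limma adjusted p = 0.000127). RefSeq ties the sbe1 identifier to a second one, GRMZM2G088737, which ranged from 143.9 to 166.3 in ear and from 193.3 to 384.6 in ear inflorescence without overlap, and reads shared between the 2 identifiers would count on both.

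The 2 debranching enzyme genes differed from each other. su1 (GRMZM2G138060), the isoamylase, was the steadiest of all, with 522.7 to 617.3 normalized counts in ear and 506.4 to 652.0 in ear inflorescence. Its log2 fold change was -0.02, 0.01 and 0.00 in event 1, event 2 and control, and the 95% interval of the mean was -0.16 to 0.15.

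zpu1 (GRMZM2G158043), the pullulanase-type debranching enzyme, had 337.6, 261.9 and 253.0 normalized counts in event 1 ear, 298.6, 439.5 and 328.7 in event 2 ear and 222.6, 235.0 and 271.3 in control ear. In ear inflorescence it had 888.5, 400.9 and 547.6 in event 1, 497.9, 352.7 and 553.9 in event 2 and 709.4, 661.1 and 560.5 in control. Event 1 and control showed no overlap between tissues, and the control samples left the widest gap. In event 2 the ear and ear inflorescence ranges overlapped. The log2 fold change was -1.04 ± 0.24 for event 1 (SE, limma adjusted p = 0.00176), -0.39 ± 0.24 for event 2 (adjusted p = 0.269) and -1.40 ± 0.24 for control (adjusted p = 0.000139), where the level in ear was 0.379 times that in ear inflorescence. The control call was lost when any 1 of the 6 control libraries was left out, with changes of -1.50 to -1.33 and limma adjusted p-values of 0.0011 to 0.00375, and when the fit was restricted to the control samples (adjusted p = 0.00157). The mean over genotypes, -0.94 ± 0.14 (limma adjusted p = 8.61e-06), was called in each of the 18 fits that left out 1 library, with changes of -1.03 to -0.84.

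Within a tissue, several of the genes had their highest or lowest value in the same sample. Shares over all transcripts were not computed for the counts in this paragraph, so whether they are particular to these genes was not tested. Event 1 ear inflorescence replicate 1 and event 2 ear replicate 2 also stood apart along the first principal component. Among the 9 ear inflorescence samples, event 1 replicate 1 was the highest for 4 of the 9 expressed genes (sh2, su2, ae1 and zpu1) and control replicate 1 for 3 (du1, sbe1 and su1). Event 2 replicate 2 was the lowest for 5 genes (sh2, su2, du1, ae1 and zpu1) and the highest for wx1. The inflorescence regulators had their highest value in event 2 replicate 2 for 4 of 4 genes and their lowest in event 1 replicate 1 for 3 of 4, with ra1 lowest in control replicate 3. kn1, the homeobox gene of shoot meristems, was lowest in event 1 replicate 1 at 4436 normalized counts and highest in event 2 replicate 2 at 13902. The coefficient of variation in ear inflorescence was 40.9% for zpu1 in event 1 and 22.2% in event 2, against 11.8% in control. For du1 it was 33.7% in event 1, 33.0% in event 2 and 11.9% in control. It was above that of control for 6 of the 9 expressed genes in event 1 and for 6 in event 2, and below it for su1 in both (11.6% and 5.58%, against 14.1%). Among ear samples, event 2 replicate 2 was the highest for 4 genes (sh2, du1, su1 and zpu1). The part of these libraries in the gene results is given by the values without them.

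The comparison of events with control asks whether ATHB17Δ113 plants differ in these transcripts. None of the 10 genes was called for either event in either tissue. Over all transcripts, limma called 0.128% for event 1 against control in ear, 0.0444% for event 2 in ear, 0.0574% for event 1 in ear inflorescence and 0.0666% for event 2 in ear inflorescence. At a raw p under 0.05, none of the genes passed for event 1 in either tissue, 1 passed for event 2 in ear (zpu1) and 2 passed for event 2 in ear inflorescence (wx1 and du1). Over all transcripts 6.76% passed for event 1 in ear, 3.82% for event 2 in ear, 2.79% for event 1 in ear inflorescence and 4.36% for event 2 in ear inflorescence. DESeq2 called none of the genes in these comparisons, taken in the same order, beside 0.212%, 0.0353%, 0.0327% and 0.0653% of all transcripts. edgeR called 1, wx1 in event 2 ear inflorescence, beside 0.604%, 0.150%, 0.0875% and 0.367%. With 3 samples against 3, the exact permutation test of a single gene cannot go below a two-sided p of 0.1.

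**Figure D4:**
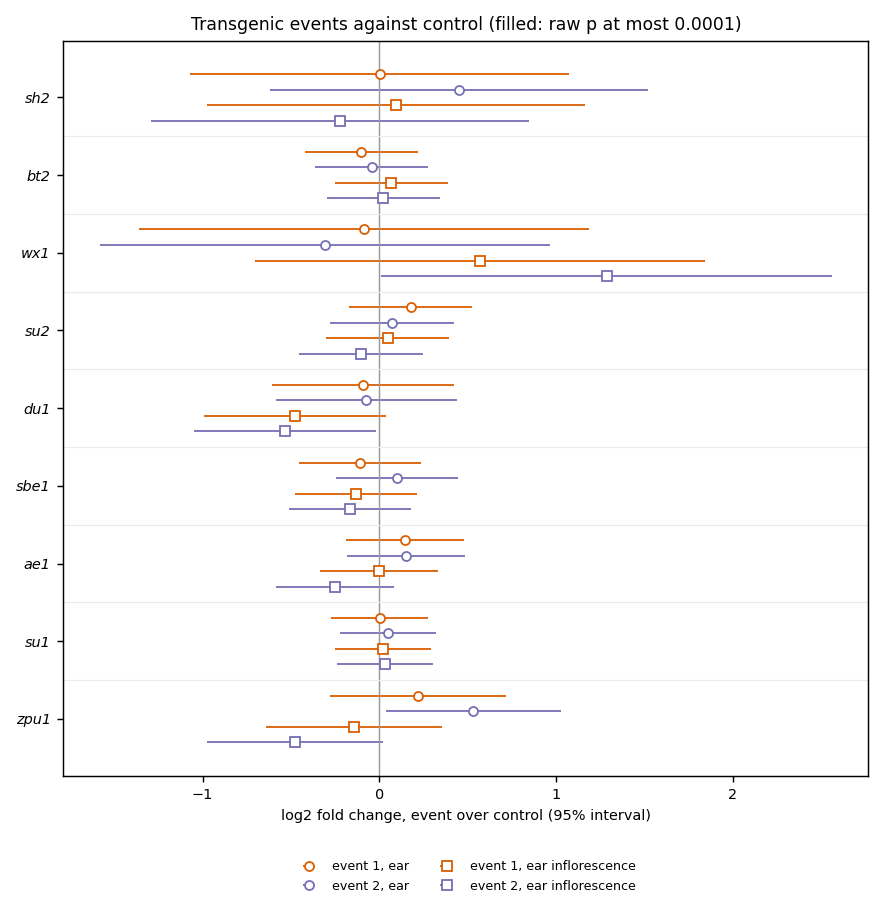
Log2 fold change of each event over control for 9 starch synthesis genes, in ear (circles) and ear inflorescence (squares), with 95% intervals from limma. All symbols are open because no raw p reached 0.0001, and the intervals are narrowest for su1 and widest for wx1.

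The intervals bound how large a difference could have gone unseen. For su1, bt2, su2, sbe1 and ae1 the 95% intervals of event over control reached no further than -0.58 and 0.53 on the log2 scale in any of the 4 comparisons. For sh2 they reached from -1.29 to 1.52, the widest of the genes apart from wx1. For wx1 the highest value was event 2 ear inflorescence, at 1.29 ± 0.61 (SE, limma adjusted p = 0.838). It was 0.40 without the sample at 430.1 (adjusted p = 1.0). edgeR put this change at 1.84 with an adjusted p of 8.63e-07, and DESeq2 put it at 1.84 with an adjusted p of 0.976. du1 in ear inflorescence was -0.48 ± 0.25 in event 1 (limma adjusted p = 1.0) and -0.54 ± 0.25 in event 2 (adjusted p = 0.838). The event 1 value was -0.25 without event 1 ear inflorescence replicate 2 and -0.73 without event 1 ear inflorescence replicate 1. The event 2 value was -0.25 without event 2 ear inflorescence replicate 2 (adjusted p = 1.0).

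For zpu1 the event 2 samples lay wholly outside the control range in both tissues, as they did for 2.04% of the 39715 transcripts. In ear, its event 2 samples of 298.6 to 439.5 normalized counts were above the control samples of 222.6 to 271.3, with a log2 fold change of 0.53 ± 0.24 (SE, limma adjusted p = 1.0). In ear inflorescence, the event 2 samples of 352.7 to 553.9 were below the control samples of 560.5 to 709.4, at -0.48 ± 0.24 (limma adjusted p = 0.838). Neither value was called. Without event 2 ear replicate 2 the ear value was 0.37, and without event 2 ear inflorescence replicate 2 the ear inflorescence value was -0.29, each at an adjusted p of 1.0 by limma.

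The difference between tissues was also compared between genotypes. None of the 10 genes was called for either event, beside 0.0196% of all transcripts for event 1 and 0.0117% for event 2. At a raw p under 0.05, none passed for event 1 and 1, zpu1, passed for event 2, beside 4.27% and 5.08% of all transcripts. DESeq2 called none for event 1 or event 2, beside 0.0392% and 0.0118%. edgeR called 1, wx1 in event 2 (adjusted p = 0.0345), beside 0.174% of all transcripts for event 1 and 0.247% for event 2. The tissue difference of zpu1 was smaller in event 2 than in control by 1.01 ± 0.34 on the log2 scale (95% interval 0.31 to 1.71, limma adjusted p = 0.813). It was 0.85 without the 2 libraries that stood apart (adjusted p = 0.536) and 0.82 without event 2 ear inflorescence replicate 2 (adjusted p = 0.922). edgeR gave 0.98 (adjusted p = 0.152), also short of the threshold.

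Event 1 against event 2 called none of the 10 genes, beside 0.0548% of all transcripts in ear and 0.0640% in ear inflorescence, and none passed a raw p of 0.05 in either tissue, where 5.27% and 4.93% of all transcripts did. edgeR called 1, wx1 in ear inflorescence, beside 0.227% of all transcripts in ear and 0.416% in ear inflorescence, and DESeq2 called none, beside 0.0366% and 0.0535%. In ear inflorescence wx1 was at -0.72 ± 0.61 (SE, limma adjusted p = 0.902), and at 0.16 without the sample at 430.1 (adjusted p = 1.0).

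A further 10 starch synthesis genes, chosen by RefSeq symbols and synonyms that match those of starch enzymes, gave a wider view of the pathway. Not all matches were used. They were agpsl1, Agpsemzm, AGP2 and AGPLS3 for ADP-glucose pyrophosphorylase, ss1 and GBSSIIa for starch synthases, sbe3 for branching, iso2 and iso3 for isoamylase-type proteins, and pho1 for the plastidial starch phosphorylase. Within a genotype, beside 14.8% (event 1), 7.87% (event 2) and 13.8% (control) of all transcripts, 1 of the 10 was called. This was iso3, which was lower in ear in control. This call was lost in 14 of the 18 fits that left out 1 library, with quantile normalization, without moderation and in the fit to the control samples alone. In the mean of the genotypes 3 of the 10 were called, beside 29.0% of all transcripts, with AGP2 and iso3 lower and ss1 higher in ear. All 10 had a mean of 10 or more, and of the 39715 such transcripts 9883 were called higher and 9995 lower in ear. Within each genotype, too, the share called was larger among those transcripts than over all, as given above. AGP2 and iso3 were called in each of those 18 fits. The ss1 call was lost with quantile normalization and in 5 of the fits, those without control ear replicate 1, control ear inflorescence replicate 2, event 1 ear inflorescence replicate 3, event 2 ear replicate 1 or event 2 ear inflorescence replicate 3. Their median log2 difference was -0.05, beside the -0.35 of the first list. None was called for an event against control, between events, or for the difference between tissues, where at most 0.128% of all transcripts were called. At a raw p under 0.05, GBSSIIa passed for event 1 against control in ear and iso3 for the tissue difference in event 2. Over all transcripts 6.76% and 5.08% passed there. GBSSIIa had 10461 to 13068 normalized counts in event 1 ear, 12741 to 14496 in event 2 ear and 15537 to 17856 in control ear. Both events thus lay below the control range in ear, and the share of all transcripts of which this holds was not computed. The genes singled out in the next sentences were chosen after their values had been seen.

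AGP2 (GRMZM2G027955), an ADP-glucose pyrophosphorylase gene, ranged from 11871 to 20956 normalized counts in ear and from 25673 to 34781 in ear inflorescence. The tissues did not overlap over the 18 samples, and the share of all transcripts of which this holds was not computed. The log2 fold change of AGP2 was -1.0 ± 0.23 in event 1, -0.73 ± 0.23 in event 2 and -0.58 ± 0.23 in control (SE), and the mean was -0.77 ± 0.13 (limma adjusted p = 4.70e-05). iso3 (GRMZM2G150796), of the isoamylase family, ranged from 370.9 to 594.3 in ear and from 602.4 to 1240 in ear inflorescence, again without overlap, with -0.83, -0.44 and -1.01 in event 1, event 2 and control and a mean of -0.76 ± 0.11 (adjusted p = 7.82e-06). ss1 (GRMZM2G129451), the soluble starch synthase I, went the other way. It ranged from 1075 to 1608 in ear and from 873.1 to 1135 in ear inflorescence, with 0.46, 0.43 and 0.54 in event 1, event 2 and control and a mean of 0.48 ± 0.09 (adjusted p = 0.000119). The isoamylase-type genes did not share a direction. iso2 had a mean change of 0.52 ± 0.12 (adjusted p = 0.000991), su1 was level and iso3 was lower in ear.

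**Figure D5:**
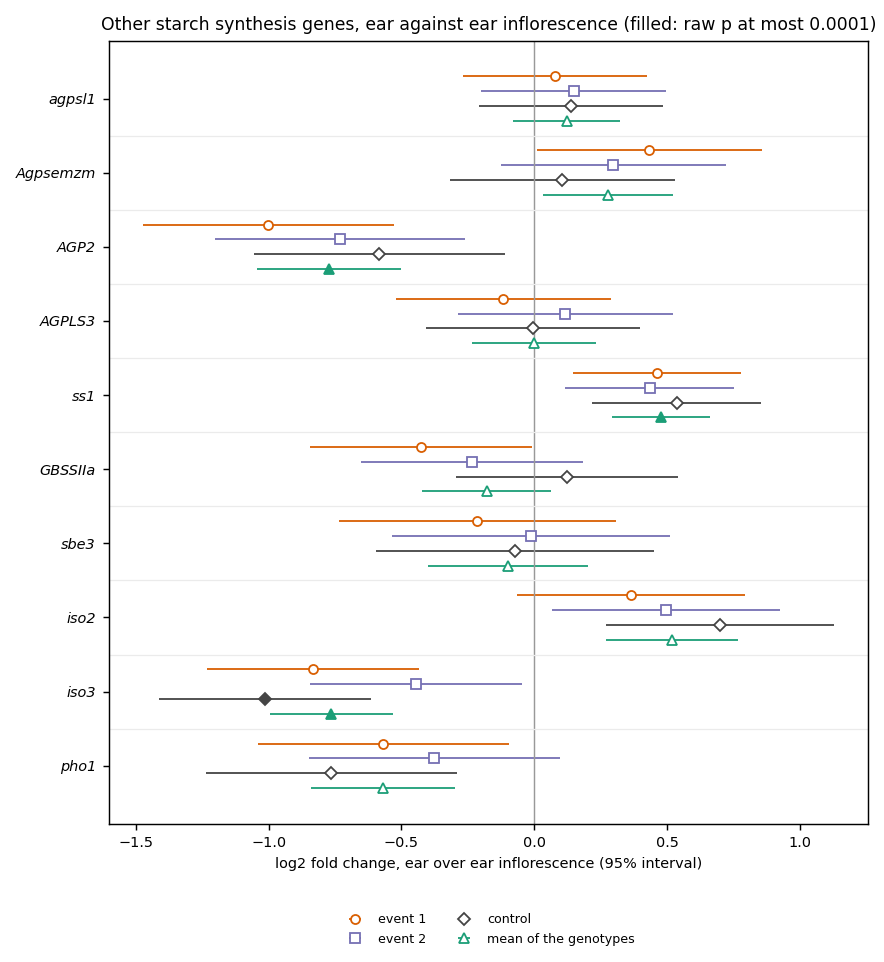
Log2 fold change of ear over ear inflorescence for 10 other starch synthesis genes in event 1, event 2, control and the mean of the genotypes, with 95% intervals from limma and filled symbols for a raw p at or below 0.0001. AGP2 and iso3 lie left of 0 and ss1 and iso2 right of it in all genotypes.

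For each expressed gene the transcript with the most similar pattern was sought among 39706 others of that mean level, by the root mean square difference of the centred log2 values over the 18 samples. For du1 this was GRMZM5G858094, the acetyl-CoA carboxylase gene Acc-1, at a difference of 0.156 where the pattern of du1 itself had a size of 0.556. For zpu1 it was GRMZM2G419984, at 0.118 against 0.581, and for sh2 AC213768.2, at 0.271 against 0.946. For wx1 the nearest, GRMZM2G112635, was still at 0.607 against 1.07. For the steadier genes the nearest were GRMZM2G036543 for sbe1 (0.0765 against 0.240), GRMZM2G124239 for ae1 (0.0813 against 0.250), GRMZM2G137632 for su2 (0.126 against 0.203), GRMZM2G037185 for bt2 (0.0852 against 0.142) and GRMZM2G053261 for su1 (0.0859 against 0.10). These values are descriptions over shared libraries and were not tested.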

How the data were processed

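The authors mapped reads of 50 bases to the B73 transcriptome with Bowtie 0.12.8, after base calling with CASAVA 1.8.2, and counted a read on every transcript it hit unless it hit more than 10. They scaled the counts with DESeq, and the deposited values are this normalized signal (normalized counts). The library kit does not mark strand. A read that hit several transcripts adds to each of them, so near-identical copies share reads. Whole reads were recovered from the deposited signal by dividing out 1 scale factor per sample (0.590 to 1.40), and 433951 of 433951 low values were whole within 0.1 read. All 18 columns were used and 0 per-sample columns were left out. Groups came from the sample labels. Where nothing states separate plots, p-values measure the spread between these samples.

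limma 3.58.1 (R 4.3.3, mean-variance trend, 6.86 prior degrees of freedom) was fitted to log2(normalized count + 1) of all 76612 identifiers, giving each of the 6 groups a mean and using all 18 samples. The call was a raw p of at most 0.0001, the study's threshold, and printed p-values are adjusted over all identifiers of a comparison (Benjamini-Hochberg). Fold changes are on this scale and understate changes of low genes. Intervals are at 95% from the same fit. The fit was tested on simulated data first. Alternatives were a pseudocount of 0.1, a minimum mean of 10, a replicate block, quantile normalization, the groups compared alone, unmoderated variances, DESeq2 1.42.0 (Wald) and edgeR 4.0.16 (quasi-likelihood) on recovered reads, calls at an adjusted p under 0.05, and each library left out. The mean over genotypes and the fit without 2 libraries were added after seeing the data.

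The genes and lists were chosen with earlier results of these data known. All 10 genes are named, with the transcript most alike to each, and list genes called alike in every genotype or called for an event would have been named too; none was. RefSeq (Zm-B73-REFERENCE-NAM-5.0) named 9 of the 10 genes; su1 keeps the name it was chosen under. No sequences were analysed here, nor were genes of starch breakdown. Figures were drawn with Python and matplotlib.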

Additional observations from a re-analysis of the deposited data

How the results depend on the processing

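No fold change of the 10 genes that was called turned round under any alternative. Of 3024 recomputed values 2983 kept their side of the threshold, 31 passed it newly and 10 lost it, and 141 that were never called changed sign. For ear against ear inflorescence the number of genes called in event 1 was 2 with edgeR, 1 with DESeq2, 4 at an adjusted p under 0.05 and 0 to 1 with each library left out (1 without event 1 ear inflorescence replicate 2, zpu1), against 0. Over all identifiers the shares called were 21.1% with edgeR, 18.9% with DESeq2 and 38.5% at an adjusted p under 0.05. In event 2 it was 1 with edgeR and 2 at an adjusted p under 0.05, against 0, beside 13.2% and 24.3% of all identifiers. In control it was 0 with limma without moderation, 3 with edgeR, 2 with DESeq2 and 5 at an adjusted p under 0.05, against 1, beside 9.08%, 20.8%, 18.7% and 37.3%, and 0 to 1 with each library left out. In the mean of the genotypes it was 1 without moderation, 4 with edgeR and 6 at an adjusted p under 0.05, against 2, beside 24.3%, 33.8% and 52.2%, and 1 to 2 with each library left out. edgeR called 1 gene, wx1, against 0 for event 2 over control in ear inflorescence, for event 1 over event 2 in ear inflorescence and for the tissue difference in event 2, beside 0.367%, 0.416% and 0.247%. The cause of these differences between tools was not tested. Leaving out a library leaves fewer samples in the fit, and a group of 2 is assumed to vary like the others.

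With replicate number as a block the number called was 1 in control and 2 in the mean of the genotypes, as without the block, and it changed no other count. The numbers share no stated litter or batch. Over 45 pairs of same-numbered samples the correlation of deviations from the group means ran from -0.51 to 0.25 (mean -0.01), and 5 of 18 samples correlated best with their own number.

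Depth limits sh2 and wx1, with 9 to 167 and 16 to 372 reads per library, and bt1, with at most 2.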

Other observations

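The summed normalized count of the 10 genes was 6179 to 7507 in event 1 ear, 7078 to 8105 in event 2 ear and 6779 to 7414 in control ear, and 7769 to 10998, 7866 to 10020 and 9287 to 11174 in ear inflorescence of event 1, event 2 and control. The highest ear sample lay above the lowest ear inflorescence sample. This sum is dominated by sbe1, bt2 and du1 and is not corrected for length.

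Event 1 ear inflorescence replicate 1 had 34 of 39715 transcripts at least 2 times as high as in every other sample, and event 2 ear inflorescence replicate 2 had 53, where the other 16 samples had 0 to 11.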
